A study of Homo sapiens with 6 samples.

Results

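RNA of a single Panc-1 pool that carried a doxycycline-inducible full-length human CaSm construct was compared with and without induction on 4 of the 6 PCR array plates of the study. The 2 plates of induced cells held tet-on CaSm cells grown for 4 weeks with 1 μg/ml doxycycline, and the 2 plates of non-induced cells held tet-on CaSm cells grown for 4 weeks without it. The other 2 plates held tet-on driver cells, which lack the CaSm plasmid and were grown for 4 weeks with 1 μg/ml doxycycline. Panc-1 is a human pancreatic carcinoma cell line, and per the study's methods all cells carried the tet-on regulator plasmid under G418 selection. The CaSm pool was derived from the driver pool by a further transfection and puromycin selection. All 89 genes measured were taken, and 83 of them could be tested. Doxycycline differs between induced and non-induced cells together with the induction of the CaSm transgene, so the drug and the induced transgene cannot be told apart in this comparison.

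CaSm is the Sm-like protein LSm1, a subunit of the cytoplasmic LSm ring that binds mRNAs with shortened tails and promotes removal of their caps before they are degraded. The array samples cancer pathways, from cell cycle control and apoptosis to adhesion, angiogenesis and invasion. CaSm itself (LSM1) is not among the genes measured on these plates. The study's methods state that CaSm levels were checked separately by reverse transcriptase PCR.

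Each value on the array is a threshold cycle (Ct), the PCR cycle at which a product is detected, and each further cycle corresponds to about 1 log2 unit less template. ΔCt is the Ct of a gene, set to 35 where it was above, minus the average of 3 housekeeping genes (B2M, HPRT1, GAPDH) from its own plate. A higher ΔCt is a lower RNA level. That mean was between 19.7 and 20.3 on the 4 plates, and 79 genes had a Ct under 35 on all of them. Between the induced plates the median absolute difference was 0.34 log2 units over these genes, with 78.5% of them higher in replicate 1. Between the non-induced plates it was 0.21, with 67.1% of them higher in replicate 1. GZMA, a gene of cytotoxic lymphocytes, was at the limit of 35 on all 4 plates, as were TIMP3 and TWIST1. TEK, an endothelial receptor gene, had Ct values of 34.1 and 35.6 in non-induced cells and of 38.9 and 40 in induced cells. Separate cultures are not stated for plates of the same condition, so p-values measure only the spread between these plates, which may be technical.

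Relative to B2M, HPRT1 and GAPDH, more of the genes called were lower than higher in induced cells, and this balance turned with other references, with 11 higher and 4 lower for GAPDH alone, 15 higher and 9 lower for the median of all genes and 5 higher and 4 lower for the mean of HPRT1 and GAPDH. An adjusted p-value under 0.05 from limma, a linear model with moderated variances, was reached by 20 of 83 genes (24.1%), of which 15 were lower (18.1%) and 5 were higher (6.02%) in induced cells. Those that rose were MTSS1, RPL13A, TNF, VEGFA and MMP1. The genes that fell most were CDC25A and ACTB. A change of at least 1.5-fold was measured for 32 of 83 genes (38.6%), with 22 lower (26.5%) and 10 higher (12%). The 2 conditions did not overlap for 51 of 83 genes (61.4%), 33 lower (39.8%) and 18 higher (21.7%). The 33 include ANGPT1, IFNA1, IFNB1, IGF1 and TEK, which had plates at the Ct limit. The limit and the reference alone gave a log2 fold change of −0.30 for GZMA, TIMP3 and TWIST1, which were not tested. All 20 genes called changed by at least 1.5-fold and had plates that did not overlap, which fixes the same direction in both replicate pairs. Over all genes tested, 60 of 83 had the same direction in both pairs. These properties follow largely from passing the test and are no added support. The median log2 fold change over the 83 genes was −0.21. Fold changes are given ± their standard error from limma (n = 2 plates a condition). The smallest p-value of an exact two-sided permutation test on 4 plates is 0.333, and limma alone was therefore used for single genes.

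**Figure D1:**
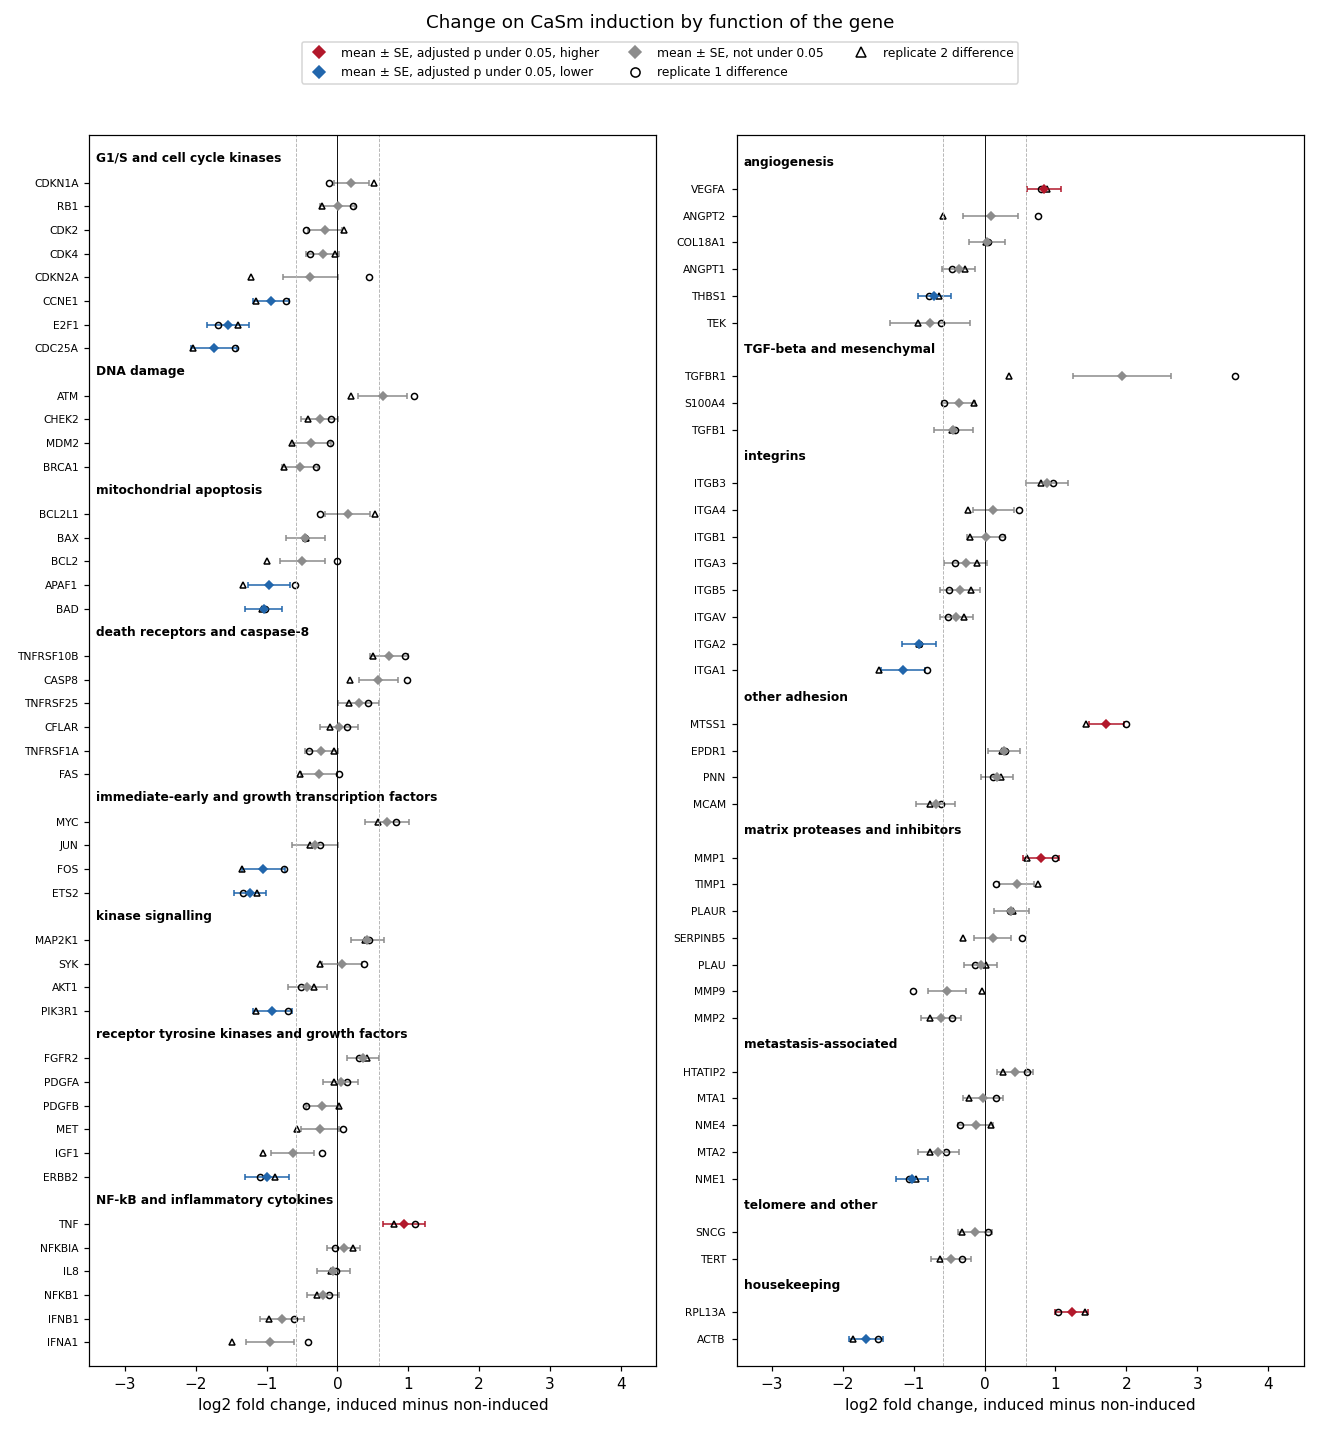
Log2 fold change between induced and non-induced cells (horizontal axis) for the genes tested except 3, grouped by function. Diamonds are means with the standard error from limma (n = 2 plates a condition), open symbols are the differences between plates of the same replicate number and dashed lines mark 1.5-fold. CDC25A and E2F1 lie far left in the cell cycle group, MTSS1 far right among the adhesion genes, and both symbols of TGFBR1 lie far apart, at 3.53 and 0.35.

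Among the 8 genes of the transition from G1 to S phase, 3 fell and none rose, against 18.1% lower and 6.02% higher over all genes tested. The median log2 fold change was −0.29 against −0.21. CDC25A, a phosphatase that activates cyclin-dependent kinases, had a ΔCt of 8.27 and 9.0 on the induced plates and of 6.83 and 6.95 on the non-induced plates. Its level was lower on both induced plates by more than a cycle. The log2 fold change was −1.74 ± 0.32 (adjusted p = 0.00505 from limma, as are all that follow), which is 3.34-fold less RNA. E2F1, a transcription factor that drives genes of DNA replication, had a ΔCt of 7.52 and 7.91 in induced cells against 5.84 and 6.50 in non-induced cells. The non-induced plates differed from each other more than for CDC25A, but did not reach the induced ones. The decrease of E2F1 was 2.91-fold (log2 fold change −1.54 ± 0.29, adjusted p = 0.00505). CCNE1, which encodes cyclin E1, had a ΔCt of 5.34 and 5.83 against 4.62 and 4.67, a 1.91-fold decrease (log2 fold change −0.94 ± 0.26, adjusted p = 0.0303).

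The other 5 genes of this group encode the kinases CDK2 and CDK4, the kinase inhibitors CDKN1A and CDKN2A and the pocket protein RB1. Their log2 fold changes lay between −0.38 and 0.20 and none passed the test. Some of the alternatives tried, named under the processing, gave every gene the same standard error and so ignored its own plate spread. CDC25A and E2F1 kept an adjusted p-value under 0.05 in 16 of 18 alternatives each, with highest values of 0.165 and 0.159, and CCNE1 in 9 of 18, with a highest value of 0.199. Without non-induced replicate 1 none of these 3 genes was under 0.05, and CCNE1 was called only when the plate left out was induced replicate 1, although their log2 fold changes were at or below −0.69 in every fit that left out a plate.

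The stretch of 250 bases upstream of the start site is shown for the 3 genes of this group that fell, because E2F factors are known regulators of this group. The sequences are from RefSeq on GRCh38.p14, written 5′ to 3′ on the strand of the gene. Capitals mark matches to the E2F motif in its forms TTTGGCGC, TTTGCCGC, TTTCGCGC and TTTCCCGC, searched on both strands. The CDC25A stretch is chr3:48188418-48188667 (minus strand), that of E2F1 is chr20:33686386-33686635 (minus strand) and that of CCNE1 is chr19:29811741-29811990 (plus strand).
CDC25A: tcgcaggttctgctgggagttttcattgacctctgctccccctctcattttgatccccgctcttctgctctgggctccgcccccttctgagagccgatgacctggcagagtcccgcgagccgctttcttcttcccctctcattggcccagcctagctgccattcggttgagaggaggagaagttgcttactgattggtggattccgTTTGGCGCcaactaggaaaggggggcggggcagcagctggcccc
E2F1: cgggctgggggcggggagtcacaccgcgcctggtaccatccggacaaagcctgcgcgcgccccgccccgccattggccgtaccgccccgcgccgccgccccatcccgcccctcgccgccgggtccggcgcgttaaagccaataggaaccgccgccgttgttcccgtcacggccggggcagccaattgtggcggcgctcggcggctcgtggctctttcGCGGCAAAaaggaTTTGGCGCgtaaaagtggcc
CCNE1: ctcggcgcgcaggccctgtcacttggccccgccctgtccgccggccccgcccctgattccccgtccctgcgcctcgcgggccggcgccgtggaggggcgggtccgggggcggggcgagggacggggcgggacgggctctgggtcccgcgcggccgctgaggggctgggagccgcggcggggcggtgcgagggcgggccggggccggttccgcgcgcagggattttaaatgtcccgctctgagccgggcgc

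The motif occurred once in the CDC25A stretch, 2 times without overlap in that of E2F1, and not in that of CCNE1. Over all 35097 promoters of the RefSeq table, 2.79% held it in the same window. That is a share of promoters, whereas an array gene was counted if any of its promoters held the motif. Of the 70 array genes with a promoter in the table, 7 held it, namely CDC25A, E2F1, MDM2, PDGFA, PNN, TEK and GAPDH. Among these CDC25A and E2F1 were called lower, where 18.1% of all genes tested were. MDM2 and TEK were lower without being called, PDGFA and PNN were not lower, and GAPDH set the scale and was not tested. Of the 13 genes called lower that had a promoter in the table, 2 held the motif. A match of letters is a description and was not tested as a binding site.

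None of the 5 genes of DNA damage signalling passed the test, and their median was −0.25. ATM, the kinase that responds to DNA breaks, had a ΔCt of 6.23 and 6.98 in induced cells and of 7.31 and 7.17 in non-induced cells. The plates did not overlap, but most of the difference lay in induced replicate 1. The log2 fold change was 0.64 ± 0.35 (adjusted p = 0.223), and it was 0.26 without that plate. BRCA1, CHEK2 and MDM2 had log2 fold changes between −0.53 and −0.25.

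Of the 5 genes of the mitochondrial route of apoptosis, 2 fell and none rose, against 18.1% lower over all genes. The median log2 fold change was −0.50 against −0.21. BAD, a BCL2 family protein that promotes death, had a ΔCt of 5.26 and 5.74 in induced cells and of 4.24 and 4.67 in non-induced cells. The decrease was 2.06-fold (log2 fold change −1.04 ± 0.27, adjusted p = 0.0259 from limma). APAF1, the scaffold on which cytochrome c activates caspase-9, had a ΔCt of 6.53 and 7.11 against 5.93 and 5.77. It decreased 1.95-fold (log2 fold change −0.97 ± 0.29, adjusted p = 0.0412), by −0.60 between the replicate 1 plates and by −1.33 between those of replicate 2. BAX, BCL2 and BCL2L1, which encode another death-promoting member and a pair of survival proteins, had log2 fold changes between −0.50 and 0.15. BAD was under 0.05 in 11 of 18 alternatives and APAF1 in 8 of 18, with highest adjusted p-values of 0.165 and 0.238. BAD was not called without induced replicate 2 or without non-induced replicate 1, and APAF1 only kept its call when the plate left out was induced replicate 1.

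No gene of the 6 that act at death receptors passed the test, and the median of this group was 0.16. TNFRSF10B, which encodes a receptor for the ligand TRAIL, had a ΔCt of 2.87 and 3.47 in induced cells and of 3.82 and 3.97 in non-induced cells. Both induced plates lay above both non-induced ones in level. The increase was 1.66-fold (log2 fold change 0.73 ± 0.27, adjusted p = 0.0746), and TNFRSF10B was called in 6 of 18 alternatives, of which 1 was the fit without induced replicate 2 (log2 fold change 1.03, adjusted p = 0.0445). The receptors FAS, TNFRSF1A and TNFRSF25, the caspase CASP8 and its regulator CFLAR had log2 fold changes between −0.26 and 0.58.

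Of the 4 growth-induced transcription factors, 2 fell and none rose, against 18.1% lower over all genes. ETS2 had a ΔCt of 4.53 and 4.59 in induced cells and of 3.20 and 3.45 in non-induced cells, a 2.35-fold decrease (log2 fold change −1.23 ± 0.23, adjusted p = 0.00505). FOS, a component of AP-1, fell 2.07-fold, with a ΔCt of 5.83 and 6.63 against 5.08 and 5.28 (log2 fold change −1.05 ± 0.30, adjusted p = 0.0379). MYC, a driver of growth and ribosome production, had a ΔCt of 4.85 and 5.56 against 5.68 and 6.12. Its induced plates were the higher ones in level, by a log2 fold change of 0.70 (standard error 0.31), but its adjusted p-value was 0.141. JUN, the other AP-1 component, had a log2 fold change of −0.32. ETS2 was under 0.05 in 17 of 18 alternatives, the exception being an adjusted p-value of 0.0933 without non-induced replicate 1, and FOS in 10 of 18, with a highest value of 0.238. With a plate left out, FOS kept its call only without induced replicate 1. MYC was called in 2 of 18.

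In the signalling groups, 2 of 11 genes fell and none rose, a share of lower genes near the 18.1% over all genes. PIK3R1, the regulatory subunit of PI3-kinase, had a ΔCt of 7.56 and 7.96 in induced cells and of 6.86 and 6.81 in non-induced cells. This was a 1.89-fold decrease (log2 fold change −0.92 ± 0.27, adjusted p = 0.0393). The kinase genes AKT1, MAP2K1 and SYK had log2 fold changes between −0.42 and 0.42, with SYK at a Ct of 35 or more on 2 of the 4 plates. ERBB2, a receptor tyrosine kinase of the EGF receptor family, had a ΔCt of 7.70 and 7.85 against 6.61 and 6.96, a 1.98-fold decrease (log2 fold change −0.99 ± 0.31, adjusted p = 0.0452). The growth factor IGF1 was at the edge of detection, with a Ct of 35 or more on 2 of the 4 plates, and its ΔCt of 14.88 and 14.82 against 14.66 and 13.77 gave an adjusted p-value of 0.174. FGFR2, MET, PDGFA and PDGFB had log2 fold changes between −0.25 and 0.36. PIK3R1 was under 0.05 in 9 of 18 alternatives and ERBB2 in 7 of 18, with highest adjusted p-values of 0.238 and 0.259. PIK3R1 kept its call with a plate left out only without induced replicate 1, and ERBB2 with none of the 4 plates left out.

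TNF, a proinflammatory cytokine, was the single gene of 6 in the NF-kB and cytokine group to pass the test. Its Ct was 33.30 and 33.31 in induced cells and 35.46 and 34.10 in non-induced cells, so that 1 non-induced value was set to the limit. On the ΔCt scale these were 13.57 and 13.13 against 14.66 and 13.92. TNF increased 1.92-fold (log2 fold change 0.94 ± 0.30, adjusted p = 0.0452), and this understates the difference for the plate at the limit. It was called in 10 of 17 alternatives. TNF lost its call without induced replicate 2 (log2 fold change 0.72) and without non-induced replicate 1 (0.58), where the adjusted p-value reached 0.319. The interferon genes IFNA1 and IFNB1 had ΔCt values of 13.81 and 14.82 against 13.40 and 13.33, and of 15.27 and 14.82 against 14.66 and 13.85. Their adjusted p-values were 0.0646 and 0.0963. IFNA1 was at the limit on induced replicate 2, and its log2 fold change was −0.44 without that plate. IFNB1 was at the limit on 3 of the 4 plates, so its fold change has no measured size. IL8, NFKB1 and NFKBIA had log2 fold changes between −0.21 and 0.09.

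Of the 6 genes of angiogenesis, 1 rose and 1 fell, where 24.1% of all genes were called. VEGFA, the main growth factor for endothelial cells, had a ΔCt of 2.81 and 2.99 in induced cells and of 3.60 and 3.87 in non-induced cells. This was a 1.79-fold increase (log2 fold change 0.84 ± 0.25, adjusted p = 0.0392). THBS1, which encodes the angiogenesis inhibitor thrombospondin-1, moved the other way, with a ΔCt of 5.19 and 5.32 against 4.41 and 4.67. Its decrease was 1.64-fold (log2 fold change −0.71 ± 0.23, adjusted p = 0.0492). VEGFA was under 0.05 in 9 of 18 alternatives and THBS1 in 4 of 18, with highest adjusted p-values of 0.170 and 0.479, and neither was under 0.05 with any of the 4 plates left out. TEK had an adjusted p-value of 0.340 and was at the limit on 3 of the 4 plates. ANGPT1, ANGPT2 and COL18A1 had log2 fold changes between −0.37 and 0.08, with ANGPT1 under a Ct of 35 on only 2 of the 4 plates.

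In the TGF-beta group the value of TGFBR1 rested on a single plate. TGFBR1, a receptor kinase for TGF-beta, had a ΔCt of 6.46 and 9.39 in induced cells and of 9.99 and 9.73 in non-induced cells. With Ct set to at most 35, the mean change was the largest of the genes tested (log2 fold change 1.94 ± 0.69), but its adjusted p-value from limma was 0.0646. Leaving out induced replicate 1 gave a log2 fold change of 0.47 (adjusted p = 0.302). Leaving out induced replicate 2 gave 3.40 (adjusted p = 4.26e-06), with the lone plate assumed to vary like the others. The ligand TGFB1 and S100A4, a calcium-binding protein of mesenchymal cells, had log2 fold changes of −0.44 and −0.36, neither passing the test.

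Integrins are the receptors by which cells attach to matrix, each a heterodimer of an alpha and a beta subunit. Of 8 subunits measured, 2 fell and none rose, near the 18.1% lower over all genes, and their median log2 fold change was −0.31 against −0.21. ITGA1 and ITGA2 encode alpha subunits of collagen receptors. ITGA2 had a ΔCt of 4.23 and 4.51 in induced cells and of 3.31 and 3.58 in non-induced cells. Its log2 fold change of −0.92 had a standard error of 0.24 and an adjusted p-value of 0.0270 from limma. ITGA1 had a ΔCt of 8.08 and 8.63 against 7.27 and 7.13, a 2.22-fold decrease (log2 fold change −1.15 ± 0.32, adjusted p = 0.0303). ITGB3, the beta subunit of the vitronectin receptor, lay in the opposite direction, with a ΔCt of 6.0 and 6.60 against 6.96 and 7.39. Its 1.84-fold difference had an adjusted p-value of 0.0525. ITGB3 was under 0.05 in 9 of 18 alternatives, with a highest value of 0.251 without induced replicate 1 (log2 fold change 0.58). ITGAV, its usual partner, and ITGA3, ITGA4, ITGB1 and ITGB5 had log2 fold changes between −0.40 and 0.12. ITGA2 was under 0.05 in 9 of 18 alternatives and ITGA1 in 10 of 18, with highest adjusted p-values of 0.206 and 0.238, and with a plate left out both were called only without induced replicate 1.

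Among the other 4 genes of adhesion, MTSS1 showed the largest rise of any gene called. MTSS1, an actin-binding protein first described as missing in metastatic cells, had a Ct of 31.05 and 31.87 in induced cells and of 33.66 and 33.30 in non-induced cells. The ΔCt was 11.32 and 11.69 against 13.32 and 13.12, so that the conditions lay more than a cycle apart. MTSS1 increased 3.29-fold (log2 fold change 1.72 ± 0.24, adjusted p = 0.00127) and was under 0.05 in all 17 alternatives in which it was tested. MCAM, a cell adhesion molecule of the immunoglobulin family, had a ΔCt of 3.83 and 4.28 against 3.22 and 3.50 (log2 fold change −0.69, adjusted p = 0.102). EPDR1 and PNN had log2 fold changes of 0.27 and 0.17.

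Matrix proteases and their inhibitors numbered 9, of which 8 were tested. MMP1, the interstitial collagenase, had a ΔCt of 10.94 and 11.35 in induced cells and of 11.94 on both non-induced plates. The 1.74-fold increase (log2 fold change 0.80 ± 0.25) had an adjusted p-value of 0.0454 from limma. MMP2, the gelatinase of mesenchymal cells, had a ΔCt of 3.54 and 4.15 against 3.08 and 3.38, on the opposite side, but its log2 fold change of −0.61 had an adjusted p-value of 0.151. MMP9, PLAU, PLAUR, SERPINB5 and TIMP1 had log2 fold changes between −0.53 and 0.45. MMP1 was under 0.05 in 7 of 17 alternatives, with a highest adjusted p-value of 0.197, and with a plate left out it kept its call only without induced replicate 2.

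Of the 5 metastasis-associated genes 1 fell and none rose, a share near the 18.1% lower over all genes. NME1, a nucleoside diphosphate kinase known as a metastasis suppressor, had a ΔCt of 1.90 and 1.94 in induced cells and of 0.83 and 0.96 in non-induced cells. Its 2.03-fold decrease (log2 fold change −1.02 ± 0.23, adjusted p = 0.0119) was called in 14 of 18 alternatives, with a highest adjusted p-value of 0.138. Without non-induced replicate 1 it was not called, at a log2 fold change of −0.95. MTA2, a subunit of the NuRD chromatin complex, had a ΔCt of 5.38 and 5.80 against 4.83 and 5.03 (log2 fold change −0.66, adjusted p = 0.141). HTATIP2, MTA1 and NME4 had log2 fold changes between −0.13 and 0.43. TERT, the catalytic subunit of telomerase, and SNCG had log2 fold changes of −0.48 and −0.14, without passing the test.

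**Figure D2:**
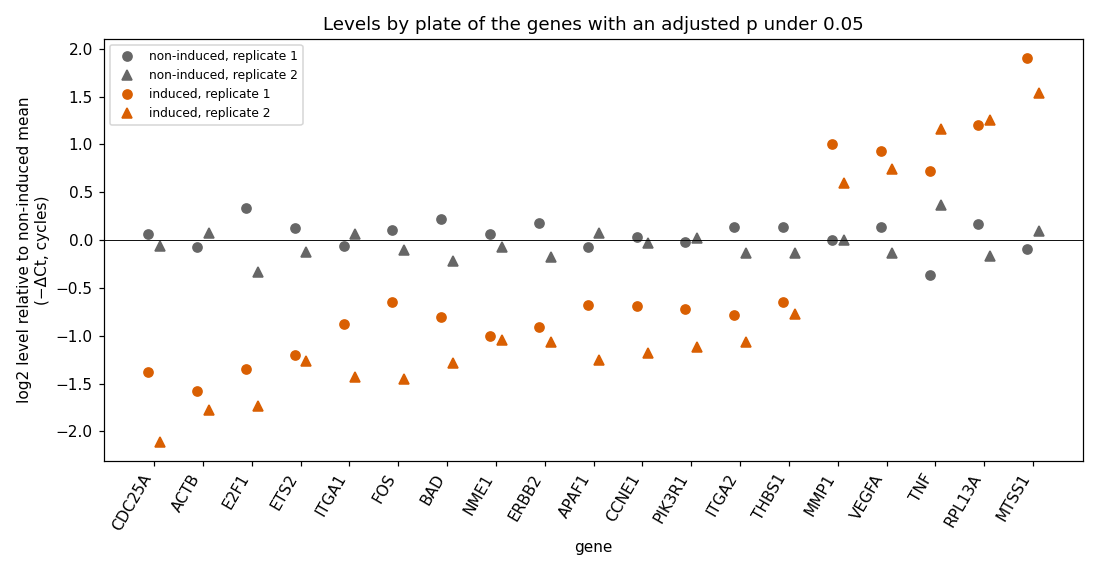
Level on each of the 4 tet-on CaSm plates of 19 of the 20 genes with an adjusted p-value under 0.05, as −ΔCt relative to the mean of the non-induced plates (vertical axis, log2 units). Grey symbols are non-induced and orange symbols induced plates, circles replicate 1 and triangles replicate 2. The induced plates lie below the non-induced plates for 14 of the genes shown and above them for 5, with the widest gaps for CDC25A, ACTB and MTSS1.

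The 5 housekeeping genes on the plates did not keep their ratio to each other. ACTB, the cytoplasmic actin gene, had a Ct of 17.44 and 18.09 in induced cells and of 16.55 and 16.23 in non-induced cells. Its ΔCt was −2.29 and −2.09 against −3.79 and −3.95. It decreased 3.20-fold relative to the 3 normalizing genes (log2 fold change −1.68 ± 0.24, adjusted p = 0.00127). RPL13A, a protein of the large ribosomal subunit, had a Ct of 20.27 and 20.67 against 21.92 and 22.08 and a ΔCt of 0.54 and 0.49 against 1.58 and 1.90. It increased 2.34-fold (log2 fold change 1.23 ± 0.24, adjusted p = 0.00505). Relative to their own mean, B2M was higher by 0.40 log2 units, HPRT1 differed by −0.07 and GAPDH by −0.34 in induced cells. These 3 genes set the scale and were not tested.

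The balance of higher and lower calls depended on the reference. With B2M alone 44 genes were called, 2 higher and 42 lower, and with GAPDH alone 15, of which 11 were higher and 4 lower. The fit with GAPDH alone gave every gene the same standard error, so its calls follow the size of the change only. With the median Ct of all genes detected on every plate there were 24, with 15 higher and 9 lower, and with HPRT1 alone there were 6, with 2 higher and 4 lower. The mean of all 5 housekeeping genes gave 17, with 6 higher and 11 lower. The mean of HPRT1 and GAPDH, tried after the data were seen, gave 9, with 5 higher and 4 lower. The median log2 fold change over the genes tested was −0.62 with B2M alone, 0.13 with GAPDH alone and 0.09 with the median of all genes. Only 6 genes were called under every reference in which they were tested: CDC25A, E2F1, ETS2 and ACTB, which fell, and MTSS1 and RPL13A, which rose. None of the 32 genes called or changed by at least 1.5-fold had another direction under any alternative. This follows largely from choosing them by the size of their change, and it is no added support.

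**Figure D3:**
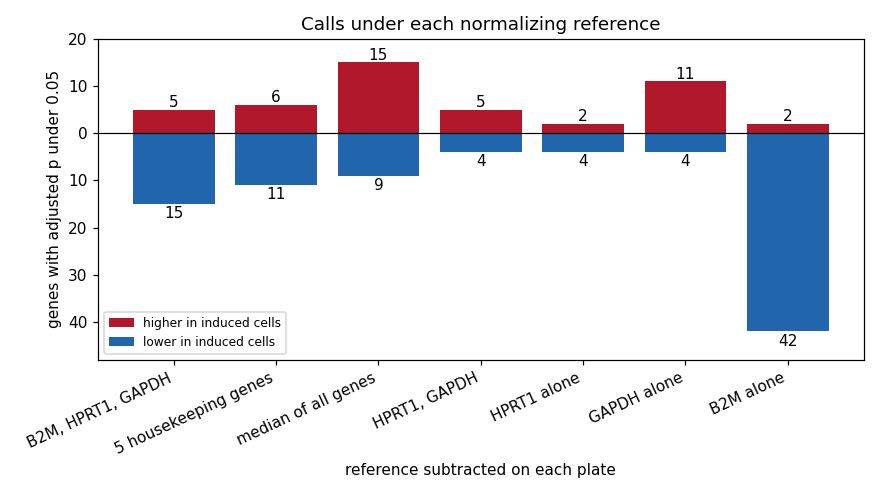
Number of genes with an adjusted p-value under 0.05 from limma (vertical axis) that were higher (red, upward) or lower (blue, downward) in induced cells, for 7 references subtracted on each plate. The split moves from 2 higher and 42 lower with B2M alone to 11 higher and 4 lower with GAPDH alone. It is 15 higher and 9 lower with the median of all genes.

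The ratio of 2 genes on the same plate does not depend on any reference. The following pairs were chosen after their values were seen and are given without a test. VEGFA relative to THBS1 had a log2 ratio of 2.38 and 2.33 on the induced plates and of 0.81 and 0.80 on the non-induced plates, a 2.93-fold shift between conditions with plates of a condition within 0.05 cycles of each other in induced cells. MYC relative to FOS was at 0.98 and 1.07 against −0.60 and −0.84. ITGB3 relative to ITGA1 was at 2.08 and 2.03 against 0.31 and −0.26, and relative to ITGA2 at −1.77 and −2.09 against −3.65 and −3.81. In each of these the members of a pair changed unequally between conditions. ATM relative to CDC25A was at 2.04 and 2.02 against −0.48 and −0.22. MMP1 relative to MMP2 shifted 2.66-fold, MTSS1 relative to MCAM 5.31-fold and RPL13A relative to ACTB 7.49-fold. Each pair joined a gene that was higher to a gene that was lower, so the separation of the conditions follows largely from the choice. MYC, ATM, ITGB3, MCAM and MMP2 were not called on their own.

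**Figure D4:**
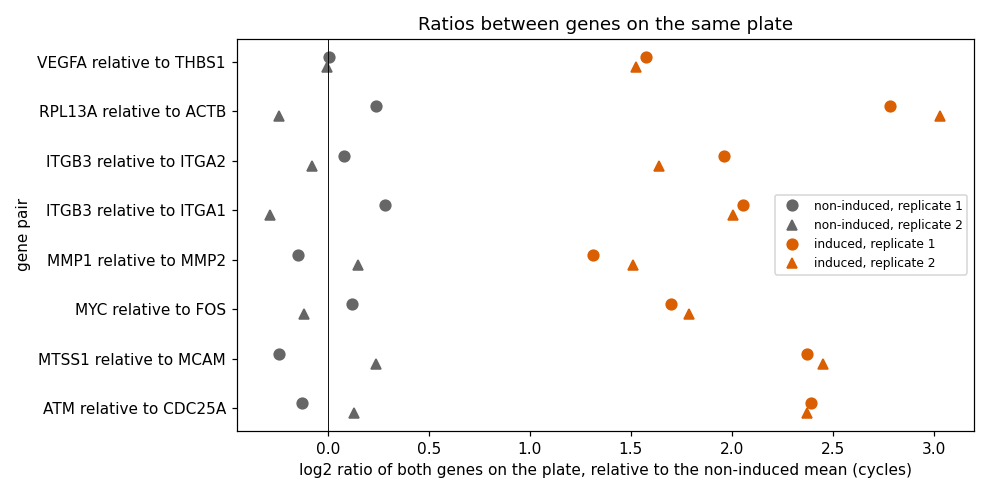
Log2 ratio of 2 genes on the same plate, from their Ct difference, relative to the mean of the non-induced plates (horizontal axis, cycles). Grey symbols are non-induced and orange symbols induced plates, circles replicate 1 and triangles replicate 2. All induced symbols lie right of the non-induced ones, which follows largely from how the pairs were chosen. Both VEGFA to THBS1 ratios of induced cells lie close together, at 2.38 and 2.33 before the mean was subtracted.

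Tet-on driver cells with doxycycline give a level for cells that received the drug without the CaSm construct. They are set beside the conditions compared for the genes called under every reference, and for VEGFA, THBS1 and TNF. CDC25A had a ΔCt of 7.25 and 7.98 in driver cells, E2F1 of 6.60 and 6.95, ETS2 of 2.86 and 2.81, and ACTB of −3.97 and −3.71. Each of these 8 values was a higher level than on the induced plates. Against non-induced cells, driver cells had a lower level of CDC25A and E2F1 on both plates, with log2 differences of −0.72 and −0.60, a higher level of ETS2, and an overlapping level of ACTB. For MTSS1 the driver values were 12.43 and 12.33 and for RPL13A 2.10 and 2.02, lower levels than on either induced plate. MTSS1 lay above both non-induced plates in driver cells, with a log2 difference of 0.84, and RPL13A lay below them. VEGFA was at 4.60 and 4.94 in driver cells, a lower level than in induced and non-induced cells alike. THBS1 was at 6.62 and 6.57, also below both, so that the non-induced cells had the highest level of the 3 conditions. TNF was at 12.51 and 12.25, above both. Among other genes called, BAD, FOS, ITGA2, MMP1 and NME1 differed from non-induced cells by −0.23 to 0.18 log2 units in driver cells. For APAF1, CCNE1, ERBB2, ITGA1 and PIK3R1 the differences were −0.84 to −0.47. The driver plates are replicates 2 and 3, and no induced or non-induced plate carries number 3. Driver ΔCt on replicates 2 and 3 was 7.03 and 7.92 for ERBB2, 7.63 and 8.46 for ITGA1 and 7.01 and 7.61 for PIK3R1. It was 6.11 and 6.73 for APAF1 and 5.05 and 5.35 for CCNE1, so replicate 3 had the lower level for each of these genes. Any comparison of induced with driver cells uses the same induced plates and is not independent of the values above.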

How the data were processed

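RNA from Panc-1 cells was measured by real-time PCR on 6 array plates, 2 a condition. The authors extracted RNA, made cDNA with the RT2 First Strand kit and ran the Cancer PathwayFinder array on a Roche LightCycler. The authors deposited, for each plate, 89 Ct values (threshold cycles) without normalization. How the threshold was set is not given in the sources used here. A further table holds the authors' own fold changes against driver cells and was not used.

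Plates were assigned to conditions from their titles. Replicate numbers stand for the marks in those titles, whose meaning is not given in the sources used here. Ct values above 35 were set to 35, a limit that the study's methods do not state. The mean of B2M, HPRT1 and GAPDH on the plate was then subtracted, the housekeeping genes those methods name. These 3 genes and 3 at the limit on all 4 plates compared were left out, which left 83. A linear model of −ΔCt with a mean for each of the 3 conditions and no block was fitted with limma 3.58.1 (R 4.3.3) to all 6 plates, which leaves 3 residual degrees of freedom. Variances were moderated by empirical Bayes, and every adjusted p-value is from this model, by Benjamini-Hochberg over 83 genes. The driver plates contribute to the spread only. Precision is limited by how few plates there are. The fit was tested on simulated data.

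Values are given for each gene with an adjusted p-value under 0.05 or a change of at least 1.5-fold and for the housekeeping genes. The other genes are given by range. The gene groups and comparison were chosen with earlier results of these data known. The values of 3 genes are not reported here, but they are in the counts. Alternatives were other references, a limit of 40 for Ct, leaving out genes whose mean Ct was 30 or more, only the 4 plates, a replicate block, other variance models, linear averaging and leaving out each plate. The mean of HPRT1 and GAPDH, a crossed block and a variance prior from 85 genes were added after seeing the data. Promoters are from RefSeq (GRCh38.p14), and 70 of 89 genes matched. Python 3.11.15 and matplotlib 3.10.9 were used for figures.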

Additional observations from a re-analysis of the deposited data

How the results depend on the processing

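Of the 20 genes called, MTSS1 and ACTB kept an adjusted p-value under 0.05 from limma in every alternative that tested them. The number called was 44 with B2M alone (2 higher, 42 lower), 6 with HPRT1 alone (2 higher, 4 lower), 8 with a Ct limit of 40 (2 higher, 6 lower), 4 without moderation of the variance (1 higher, 3 lower) and 9 with the mean of HPRT1 and GAPDH, of which 4 were lower. GAPDH alone gave 11 higher and 4 lower, and the median of all genes 15 higher and 9 lower. At 1.5-fold, B2M alone gave 3 higher and 45 lower, GAPDH alone 19 higher and the median of all genes 18 higher, against 10 higher and 22 lower. With each plate left out in turn, between 3 and 18 genes were called, with 2 to 6 higher and 1 to 15 lower, and between 6 and 13 genes were at least 1.5-fold higher. The count of 3 was without non-induced replicate 1 and left MTSS1, RPL13A and ACTB. It was 10 without non-induced replicate 2, 12 without induced replicate 2 and 18 without induced replicate 1. Each of these fits leaves a condition with 1 plate, which is assumed to vary like the others.

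The other alternatives gave counts within 1.5 times the main ones. The causes of the differences were not tested. Whether plates of the same replicate number were paired is not known. Over 79 genes the deviations of the same replicate in both conditions had a correlation of −0.16. Such a correlation cannot show an offset shared by all genes of a plate. Replicate 1 was higher for 78.5% of these genes in induced cells and for 67.1% in non-induced cells. A replicate block gave 24 genes and the crossed block 19. In the fits with GAPDH alone, only the 4 plates or either block, every gene had the same standard error. It was 0.34 for GAPDH alone, 0.33 for the 4 plates, 0.31 for the replicate block and 0.35 for the crossed block. Calls in these fits follow the size of the change and not the gene's own plate spread, and they enter each count of alternatives. Before adjustment 28 genes had a p-value under 0.05. Genes with a Ct near 35, such as TNF, TEK, IFNA1, IFNB1, IGF1, SYK and ANGPT1, have only a bound on the plates at the limit.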
